A study of Caenorhabditis elegans with 2 samples.

Results

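The 34 genes described here encode germ granule proteins, germline Argonautes and the other factors that make or use small RNAs in the germline of Caenorhabditis elegans. They were taken by name from a fixed list, which was chosen with earlier results of these data known. All 34 were found among the 19973 protein-coding genes on the 6 nuclear chromosomes of the WBcel235 annotation. The experiment was chromatin immunoprecipitation with sequencing (ChIP-seq) with an antibody against GFP, in whole young adult hermaphrodites of strain RW10325, which carries MES-4 fused at its C terminus to GFP and FLAG. There was 1 group of 2 biological replicates, collected 63 h after synchronization by L1 starvation following bleaching, and each replicate came from its own biosample. Every animal carried the tag, and whole animals hold soma and germline together, so the tissue behind a peak cannot be told apart.

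Germ granules are condensates of RNA and protein that sit at the nuclear pores of germ cells. Transcripts that leave the nucleus pass through them, where Argonaute proteins loaded with small RNAs either silence a transcript or mark it as the germline's own. RNA-dependent RNA polymerases make most of these small RNAs from the targeted transcripts, and nuclear Argonautes carry the signal back to chromatin. MES-4 is a histone methyltransferase of the germline that is known for maintaining a mark of transcribed germline genes across generations.

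The deposited data were lists of peaks, and 4 lists on the ce11 build were used: the reproducible list (440 nuclear peaks), the relaxed list of the pooled replicates (12008) and the relaxed list of each replicate (15372 in replicate 1 and 14947 in replicate 2). A relaxed list holds peaks together with background regions, so an entry in it is not by itself a call of binding. A single entry far down it is weak evidence. Each entry has a signal value given by the authors' peak caller and a summit, the base of highest signal. Entries were ranked by signal value within a list, with rank 1 the highest, because the scale of the signal value differs between lists. A gene is called marked here when a summit fell between its first and last annotated base or within the 500 bp before its start. With 1 group there is no contrast between conditions, so counts are set beside the share of all protein-coding genes marked by the same rule, and no test was run.

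In the reproducible list, 3 of the 34 genes were marked, hrde-1, csr-1 and mip-2, where 1.45% of all protein-coding genes were. The 440 pooled regions of highest signal marked the same 3 members and as many genes in all (289). A place in the reproducible list is therefore not evidence separate from pooled rank. In the pooled relaxed list 20 of the 34 were marked (58.8%), where 34.3% of all genes were. In replicate 1 the count was 24, with a background of 40.6%, and in replicate 2 it was 23, with a background of 39.5%. Both replicates marked 19 of the 34, against 26.1% of all genes. At least 1 of the 4 lists marked 28 of the 34, against 54.9% of all genes, and glh-4, meg-1, meg-3, alg-3, mut-2 and nrde-3 were marked in none. Marking used no cut-off on q. The strongest pooled summit had an authors' −log10 q (higher is stronger) of 2.18 at hrde-1 and csr-1, 1.99 at mip-2 and 1.82 at glh-2. It was 1.02 at glh-1, 0.53 at wago-4, 0.21 at drh-3 and 0.019 at henn-1.

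The 34 genes are longer than most, with a median of 3476.5 bp against 2027 bp, and long genes are marked more often. All genes were put into 4 length classes of near equal size. In the class from 1216 to 2027 bp the pooled list marked 1 of 3 members, against 25.2% of all genes. In the class from 2028 to 3636 bp it marked 10 of 16, against 35.6%, and in the class of longer genes 9 of 15, against 56.0%. The count thus exceeded its background most clearly among genes of middle length. Weighted to the length classes of the 34 genes, the background in the pooled list was 43.6%, in replicate 1 51.3% and in replicate 2 49.99%.

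**Figure D1:**
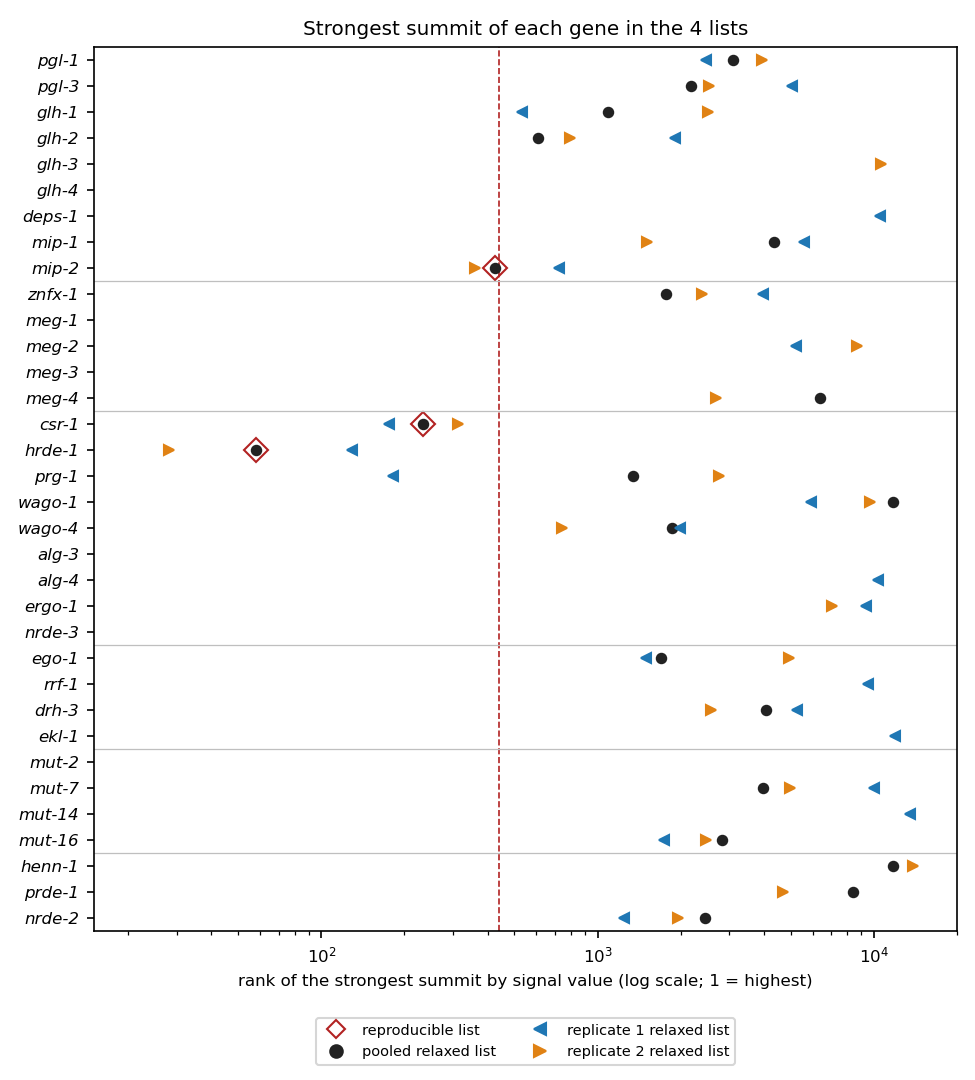
Rank of the strongest summit of each of the 34 genes (rows, grouped by role with lines between groups) by signal value in the reproducible list, the pooled relaxed list and the relaxed list of each replicate, on a log axis. The dashed line is at rank 440, the size of the nuclear reproducible list, and hrde-1, csr-1 and mip-2 are the genes whose pooled summit lies to its left.

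The strongest peak of the set was at hrde-1, which encodes the nuclear Argonaute of heritable germline silencing. The gene (WBGene00007624) lies on the minus strand of chromosome III from 4172337 to 4176159, and the peak at 4172244 to 4172683 had its summit in the 3' UTR, 127 bp before the annotated 3' end. Its signal value was 145.7 and its rank 58 in both the pooled and the reproducible list. In replicate 2 the strongest summit ranked 28 with a signal value of 87.5. In replicate 1 the same region was split into neighbouring peaks of rank 129 and 142, with signal values of 61.3 and 59.9. Both replicates thus held the region among their highest, with summits 88 bp before the 3' end in replicate 2 and 237 and 9 bp before it in replicate 1. Further pooled summits of hrde-1 were weaker and lay in the 3' UTR (rank 2191) and in coding exons (ranks 2121 and 2429).

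The gene of the Argonaute CSR-1, which binds transcripts of germline-expressed genes, carried the next peak. csr-1 (WBGene00017641) lies on the plus strand of chromosome IV from 7957267 to 7962157, and the peak at 7961776 to 7962215 had its summit in the 3' UTR, 161 bp before the 3' end. Its signal value was 98.4 (rank 234), and the matching summit ranked 176 in replicate 1, with a signal value of 57.0, and 312 in replicate 2, with a signal value of 46.0. The strongest summits inside the gene were 22 bp apart in the replicates. A neighbouring reproducible peak of rank 269 (signal value 92.8) had its summit 68 bp beyond the 3' end. That peak ranked 759 in replicate 1 and 197 in replicate 2, so the order of the neighbouring peaks differed between replicates. csr-1 overlaps a longer gene of the same strand, frpr-10, and the summit of the csr-1 peak also falls in an annotated 5' UTR exon of frpr-10, so the peak cannot be given to 1 of these genes.

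mip-2 encodes a LOTUS domain protein that works with the helicase GLH-1 in germ granule assembly. The gene (WBGene00010281) lies on the minus strand of chromosome V from 13669353 to 13671958, and the peak at 13669194 to 13669633 had its summit in the 3' UTR, 61 bp before the 3' end. Its signal value was 78.3 and its rank 424, near the end of the reproducible list, whose weakest nuclear peak had 77.3. The matching summit ranked 726 in replicate 1 (signal value 36.4) and 360 in replicate 2 (43.4), 30 bp apart. The next gene, rde-12, converges on mip-2 from the plus strand and ends 61 bp from it, inside the same peak. RDE-12 is a helicase of the RNA interference pathway, so the peak covers the ends of neighbouring small RNA genes.

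All 3 genes had long 3' UTRs. That of csr-1 was 494 bp, longer than in 90.6% of the 16794 protein-coding genes with an annotated 3' UTR, that of hrde-1 432 bp (88.1%) and that of mip-2 259 bp (75.2%). The median was 131 bp over those genes and 219 bp over the 34. Of the 289 protein-coding genes marked in the reproducible list, 19 had the strongest summit in the 3' UTR (6.57%). Leaving out peaks within 220 bp of a tRNA, snRNA or snoRNA gene left 127 genes, of which 18 did (14.2%). None of the 3 peaks lay at such a small RNA gene.

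The bases at the pooled summits are given here. The strongest summits of the replicates lay 149 bp apart at hrde-1, so a summit does not fix a single base. At these 3 genes every peak was 440 bp wide in the pooled list and in replicate 1, and 430 bp in replicate 2. The reach of a peak across a gene end therefore follows a uniform width. Each sequence below is 30 bases of the gene's own strand on ce11 (RefSeq assembly of WBcel235), written 5' to 3', and the capital marks the summit base. The windows are chrIII:4172450-4172479 (minus strand) for hrde-1, chrIV:7961981-7962010 (plus strand) for csr-1 and chrV:13669400-13669429 (minus strand) for mip-2.
hrde-1: ttcctccaactttctTattaggagttttcg
csr-1: ctggaagatttctttTcatatgaaattgtg
mip-2: tggagaataagtcccTtggtttattatcat
The summits lay 308 bp after the last annotated coding base in hrde-1, 336 bp after it in csr-1 and 201 bp after it in mip-2. GC content of these windows was 36.7% in hrde-1, 30% in csr-1 and 33.3% in mip-2.

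The last 30 bases of hrde-1 and csr-1 are shown because the peaks reach across them. Capitals mark AATAAA, the common polyadenylation signal, which was searched on the gene's own strand. The windows are chrIII:4172337-4172366 (minus strand) for hrde-1 and chrIV:7962128-7962157 (plus strand) for csr-1.
hrde-1: catttattaagcAATAAAttattcgagaag
csr-1: tattcaacgatgaaaagttgaaacagtgta
The motif stood in this window in hrde-1 and not in csr-1, and over all it stood there in 12 of the 34 genes and in 45.5% of all protein-coding genes.

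**Figure D2:**
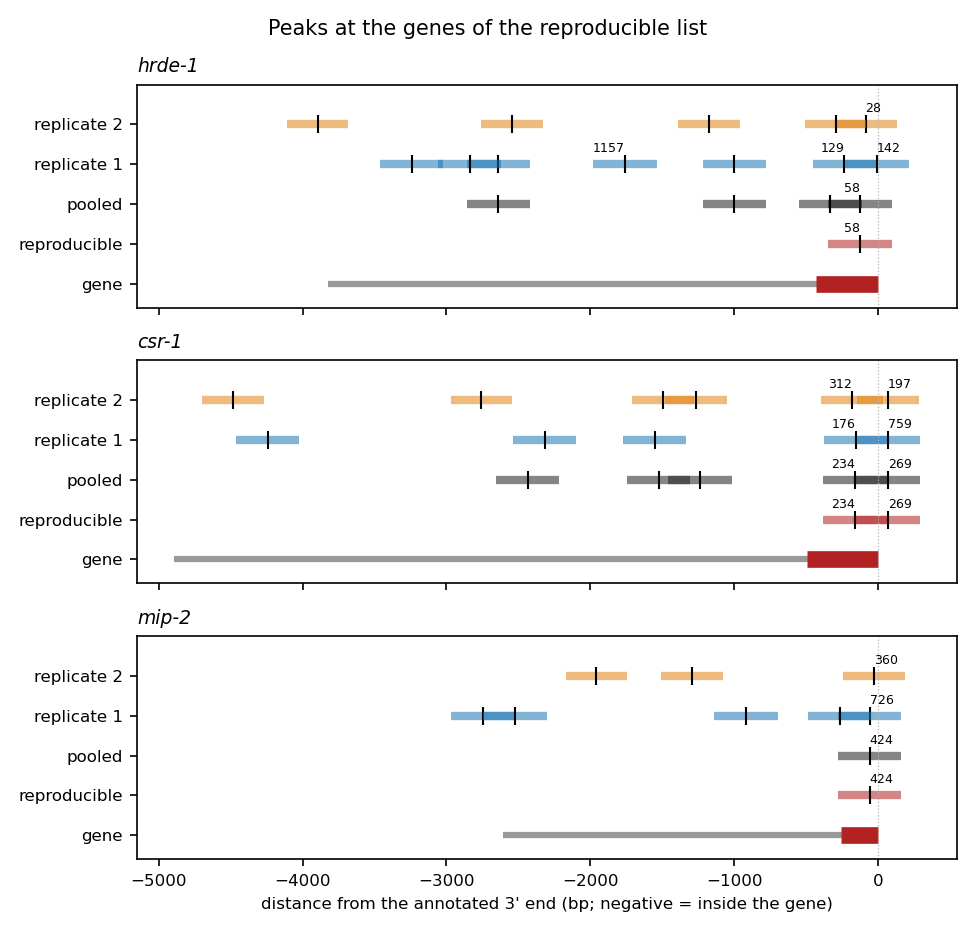
Peaks (bars) and summits (ticks) of each list at hrde-1, csr-1 and mip-2, by distance in bp from the annotated 3' end, with the gene in grey and its 3' UTR in red. Numbers are ranks under 2000 within a list, and in each gene the pooled peak of highest rank spans the 3' end.

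Ranks in the following paragraphs are of summits inside a gene or upstream of it unless a summit beyond the 3' end is named. By that rule glh-2 came nearest to the reproducible list among the other scaffold and helicase genes of the granule. GLH-2 is a Vasa-family helicase, and its gene on chromosome I (6513928 to 6517507, plus strand, WBGene00001599) was the only further member among the 1000 pooled regions of highest signal, where 4 of 34 were marked and 3.59% of all genes. The peak at 6515297 to 6515736 had signal value 68.1 and rank 610, with rank 1911 in replicate 1 (28.2) and 796 in replicate 2 (34.02). Its summit lay in a coding exon, 1589 bp from the 5' end, far from the 3' UTR. This summit was thus unlike those of hrde-1, csr-1 and mip-2 in position, and the strongest summits of the replicates were 44 bp apart. A weaker pooled summit of rank 3383 (signal value 41.1) lay 130 bp beyond the 3' end of glh-2, inside the convergent gene che-1. Summits near that end ranked 5354 in replicate 1 and 4004 in replicate 2.

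glh-1, of the same helicase family, had its strongest pooled summit in the 3' UTR, 87 bp before the 3' end (rank 1087, signal value 56.1). Replicate 1 held this peak at rank 532, and replicate 2 held none that overlapped it. The replicates therefore differed at glh-1, since replicate 2 had its only summit 785 bp away in a coding exon (rank 2516). pgl-3 and pgl-1 encode PGL proteins, the core scaffold of the P granule. The pooled summit of pgl-3 inside the gene ranked 2177 and the strongest inside pgl-1 3082, each in a coding exon close to 80% of the way along the gene, and both replicates marked both genes. pgl-1 had a stronger pooled summit of rank 1333 (signal value 52.8), 166 bp beyond its 3' end, with rank 2466 in replicate 1 and 1662 in replicate 2. mip-1, the partner of mip-2, had pooled summits of rank 4343 at its 5' end and 4869 near its 3' end, where only the first lacked a peak of replicate 2. The helicase gene glh-3 was marked in replicate 2 alone (rank 10576), with the strongest summit 317 bp upstream, in the 3' UTR of the gene mtk-1. deps-1, for a P granule protein, was marked in replicate 1 alone (rank 10569), and the helicase gene glh-4 in no list. Of these 9 genes 6 were marked in the pooled list, against 34.3% of all genes.

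ZNFX-1 is a helicase of Z granules, and znfx-1 was marked in the pooled list at rank 1772, with its summit in an intron. The summit ranked 2386 in replicate 2, and a peak that overlaps it ranked 3955 in replicate 1. The MEG proteins, which build germ granules in the embryo, are encoded on the X chromosome. meg-1 and meg-3 were marked in no list, meg-2 in the replicates at ranks 5235 and 8724 without a pooled region, and meg-4 upstream in replicate 2 (rank 2687) and the pooled list (rank 6401). With nrde-3 there were 5 genes of the set on X, of which 1 was marked in the pooled list, against 29.4% of X genes. Of the 29 autosomal members 19 were (65.5%), against 35.0% of autosomal genes. In any list 2 of the 5 on X were marked, against 54.4%, and 26 of the 29 on autosomes, against 54.9%.

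The Argonaute genes ranged over the whole scale. prg-1, which encodes the Piwi protein that binds piRNAs, had a summit of rank 181 in replicate 1 (signal value 56.6) in a coding exon. In replicate 2 its strongest summit ranked 2756 (24.2), lay 500 bp away and did not overlap that peak. The pooled region there ranked 1338, with no overlapping peak of replicate 2. A second pooled region of rank 1215 (signal value 54.4) had its summit 48 bp beyond the 3' end of prg-1, inside the convergent gene D2030.12, and was held by both replicates, at rank 498 in replicate 1 and 808 in replicate 2. wago-4, which encodes a partner of ZNFX-1 in inheritance, had a pooled summit of rank 1866 in a coding exon, with rank 1985 in replicate 1 and 746 in replicate 2. wago-1, which encodes a cytoplasmic silencing Argonaute, was marked by the rule at ranks no higher than 5921 in replicate 1 and 9711 in replicate 2, in places 2579 bp apart. Its strongest pooled summit in the neighbourhood ranked 1512 (signal value 51.0) and lay 302 bp beyond its 3' end, inside the convergent gene dhp-1, with rank 531 in replicate 2 and no summit of replicate 1 within 500 bp of the 3' end.

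The Argonautes of spermatogenesis and of the ERGO-1 pathway were weak or absent. alg-3 was marked in no list, and alg-4 in replicate 1 alone at rank 10350. ergo-1 was marked in introns in replicate 1 (rank 9391) and replicate 2 (rank 7062), 1753 bp apart and with no pooled region. NRDE-3 is a nuclear Argonaute of somatic cells, and nrde-3 was marked in no list. Of the 9 Argonaute genes 5 were marked in the pooled list, against 34.3% of all genes, and 6 in both replicates, against 26.1%.

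Inside the gene or upstream, the polymerase genes were marked upstream or weakly. ego-1, which encodes the RNA-dependent RNA polymerase essential in the germline, had its pooled summit 267 bp upstream (rank 1699, signal value 49.2). Replicate 1 held it at rank 1494 and replicate 2 at rank 4934, with the strongest summits 47 bp apart, so both replicates placed it upstream. The 3' end of F26A3.4, on the same strand, lay 373 bp from the pooled summit, so the summit cannot be given to the ego-1 promoter alone. drh-3, which encodes a Dicer-related helicase, also had its strongest pooled summit upstream, by 32 bp (rank 4072). This summit lay 321 bp from the 3' end of D2005.7, on the same strand. Replicate 2 held it at rank 2564, and an overlapping peak of replicate 1 ranked 12031. The strongest drh-3 summit of replicate 1 lay elsewhere, in a coding exon (rank 5250), 1853 bp from that of replicate 2. rrf-1 and ekl-1, for a further polymerase and a Tudor domain protein, were marked in replicate 1 alone at ranks 9521 and 11941.

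Among the mutator genes, which are needed to amplify small RNAs, mut-16 and mut-7 were marked in the pooled list. mut-16 encodes the scaffold of mutator foci, and its strongest pooled summit ranked 2821 in a coding exon. Overlapping peaks ranked 1733 in replicate 1 and 11373 in replicate 2. The strongest mut-16 summit of replicate 2 lay in an intron (rank 2460), 970 bp from that of replicate 1. mut-7, for an exonuclease, had its summit in the 3' UTR (rank 3978), and this lies 366 bp upstream of the gene ZK1098.3. The strongest summit of replicate 2 inside mut-7 was also in the 3' UTR (rank 4979), while an overlapping peak of replicate 1 ranked 10984. The strongest mut-7 summit of replicate 1 lay in a coding exon (rank 10034), 1536 bp from that of replicate 2. mut-14, for a helicase, was marked in replicate 1 alone (rank 13462), and mut-2, for a nucleotidyltransferase, in no list. Of the remaining factors, nrde-2 of nuclear silencing ranked 2448 in an intron, prde-1 of piRNA transcription 8406, and henn-1, which encodes the methyltransferase of small RNA ends, 11773, the lowest of the 20. The nrde-2 region overlapped a peak of replicate 1 (rank 1251) and none of replicate 2. The strongest summits of the replicates in nrde-2 were 1574 bp apart. prde-1 and henn-1 lacked a peak of replicate 1, and the prde-1 summit also lies in an intron of glb-14, a gene on the other strand.

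**Figure D3:**
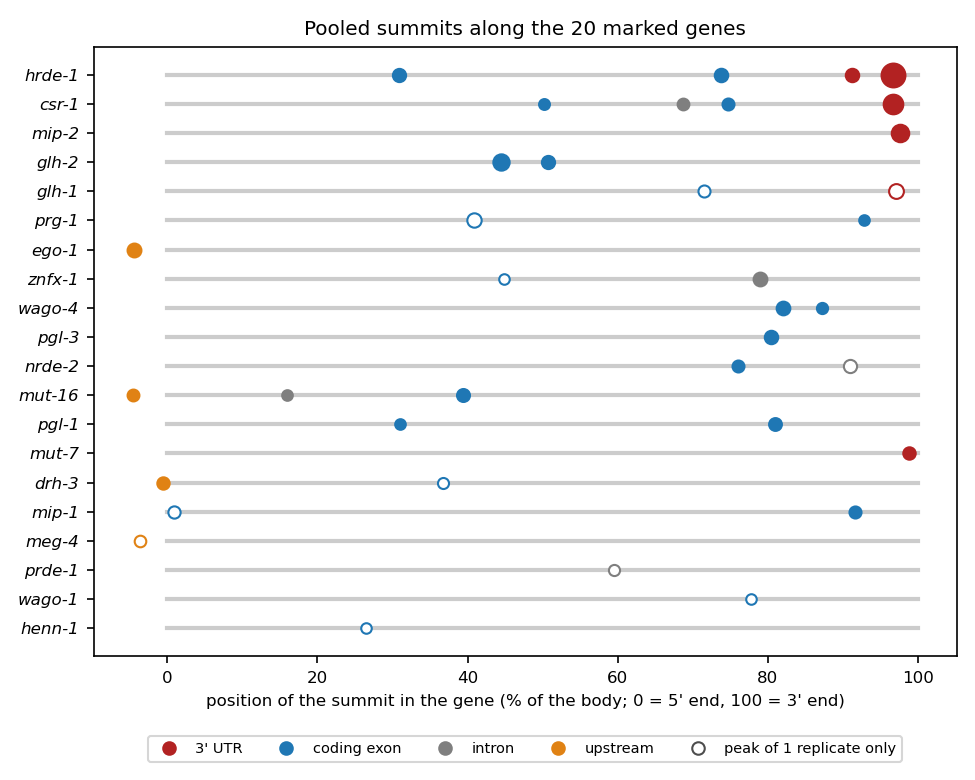
Pooled summits along the 20 marked genes, ordered by the rank of their strongest summit, as a percentage of the gene body from the 5' end (0) to the 3' end (100). Area follows the signal value, colour gives the class of the position, and open circles had a peak of 1 replicate only, such as the 3' UTR summit of glh-1.

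In all, the strongest pooled summit of the 20 marked genes lay in a coding exon in 9, in the 3' UTR in 5, in an intron in 3 and upstream in 3. Over all 6842 marked protein-coding genes these shares were 37.6% coding exon, 7.19% 3' UTR, 32.5% intron and 19.9% upstream. The set thus held more 3' UTR summits (25%) and fewer intron summits (15%), on small numbers. Of the 17 genes with the strongest summit inside the body, 12 had it in the downstream 50% (70.6%, against 52.8% of all such genes). The same was so of 16 of 22 in replicate 1 (72.7% against 52.9%) and of 16 of 19 in replicate 2 (84.2% against 53.0%).

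Replicate support of the regions was higher than in the list as a whole, while the exact place varied. Of 37 pooled regions at the 34 genes, 26 overlapped a peak of each replicate (70.3%, against 46.7% of all 12008), 6 of replicate 1 only and 5 of replicate 2 only. This comparison was not matched for rank. Neighbouring regions of a gene could also share a replicate peak, as those of ranks 58 and 2191 at hrde-1 did. Of the 19 genes marked in both replicates, the strongest peaks of the replicates overlapped in 9 (47.4%, against 49.2% of 5203 genes). The genes where they overlapped were hrde-1, csr-1, mip-2, glh-2, wago-4, pgl-1, pgl-3, znfx-1 and ego-1. GC content of the 37 regions had a median of 40.7%, against 38.2% of all pooled regions.

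Several of the genes had a peak across the 3' end whose summit fell just beyond it, so that the rule above did not count it. A window of 500 bp on either side of the annotated 3' end was therefore examined, and this window was chosen after the values were seen. In it 19 of the 34 genes had a pooled summit (55.9%), against 20.4% of all protein-coding genes. All 19 were among the 29 autosomal members. Only 5 members lie on X, and the share of X genes was not counted for this window. The same window at the 5' end held a summit in 5 of 34 (14.7%), against 16.3%. The window has 1 size for every gene, and at the 3' end the share over all genes ranged from 19.1% to 21.5% between the 4 length classes.

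Both replicates showed the 3' end pattern. In replicate 1 it was 17 of 34 (50%, against 23.1%), in replicate 2 19 of 34 (55.9%, against 23.4%), and 14 of 34 had one in both (41.2%, against 11.9%). At the 5' end the counts were 6 (17.6%, against 18.5%) in replicate 1 and 10 (29.4%, against 18.6%) in replicate 2. The excess over all genes was thus at the 3' end in each replicate, while at the 5' end replicate 2 alone stood above all genes.

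**Figure D4:**
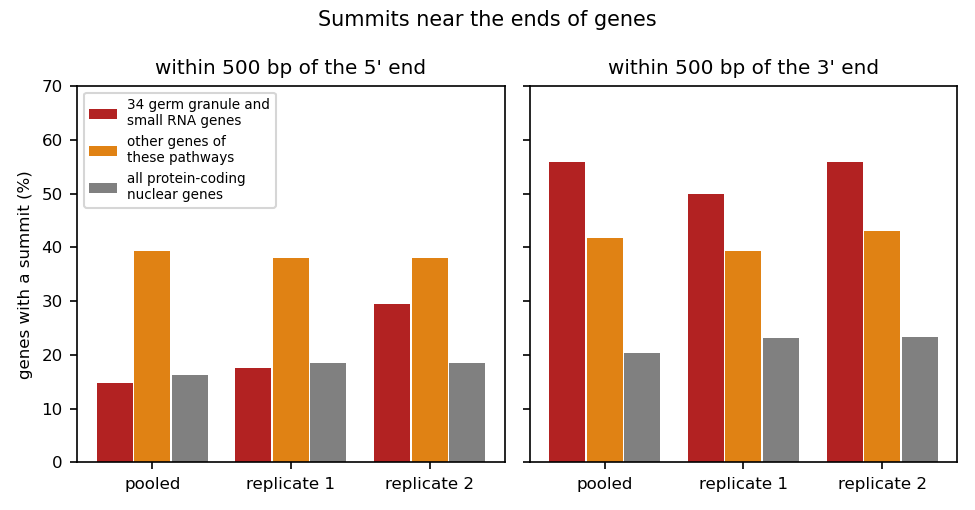
Share of genes with a summit within 500 bp of the annotated 5' end (left) and 3' end (right) in the pooled list and in each replicate, for the 34 genes, 79 other genes of these pathways and all protein-coding nuclear genes. At the 3' end the 34 genes stand at 55.9%, 50% and 55.9%, against 20.4% to 23.4% of all genes.

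Of the 19 pooled summits at 3' ends, 13 lay beyond the annotated end and 6 before it, with a median of 93 bp beyond. The P granule gene deps-1 had such a summit at rank 454 (signal value 76.6), 74 bp beyond its end and inside the convergent gene Y65B4BL.7. It ranked 270 in replicate 2 and 3203 in replicate 1. mut-16 had one at rank 463 (75.9), 35 bp beyond its end, with rank 252 in replicate 1 and 2420 in replicate 2. Both stood just outside the reproducible list, with signal values below the 77.3 of its weakest nuclear peak. Each was high in 1 replicate and lower in the other.

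wago-4 had a summit of rank 837 at 121 bp beyond its end, rrf-1 one of rank 1132 at 138 bp, and znfx-1 one of rank 1185 at 112 bp. The peak at rrf-1 ranked 3627 in replicate 1 and 1066 in replicate 2, and that at znfx-1 1788 and 1134. Both also lay at the start of the next gene on the same strand, since the rrf-1 summit was 35 bp inside ncbp-2 and the znfx-1 summit 4 bp before the start of ZK1067.3, so neither can be given to 1 gene. The 1000 pooled regions of highest signal gave a summit in this window to 6 of the 34 genes (17.6%, against 2.67%) and to none at the 5' end (against 1.75%). Those 6 were hrde-1, csr-1, mip-2, deps-1, mut-16 and wago-4. In the pooled list glh-3, deps-1 and rrf-1 had a summit at the 3' end and none in the body or upstream.

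Genes in the worm often end close to a neighbour on the other strand, and a summit between such genes belongs to neither alone. A convergent 3' end within 500 bp was present in 13 of the 34 (38.2%) and in 28.8% of all protein-coding genes. Among those 13, 8 had a pooled summit at the 3' end (against 28.5% of all genes with such a neighbour), and among the other 21 it was 11 (52.4%, against 17.2%). The share was thus above all genes with and without a convergent neighbour. At prg-1 the ends of the gene and of D2030.12 were 11 bp apart, at glh-2 the end of che-1 was 22 bp away, at mip-2 that of rde-12 61 bp, at drh-3 that of glna-3 64 bp and at hrde-1 that of C16C10.4 114 bp.

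The start of another gene lay within 500 bp of the 3' end in 5 of the 34 (14.7%) and in 21.3% of all protein-coding genes. Of those 5 genes 4 had a pooled summit at the 3' end, against 27.1% of all such genes, and of the other 29 it was 15 (51.7%, against 18.6%). With neither such a start nor a convergent end nearby, 7 of 16 had one (43.8%, against 13.4%). These splits, too, were chosen after the values were seen. Besides rrf-1 and znfx-1, the summit at nrde-2 was 311 bp inside mrps-14, that at mut-7 366 bp before ZK1098.3 and that at glh-3 437 bp before cpb-3.

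A list of 82 other germ granule, small RNA and germline RNA-binding genes, of which 79 matched the annotation by name, was counted in the same way. None of the 79 was marked in the reproducible list, against 1.45% of all genes. In the 1000 pooled regions of highest signal 4 were (5.06%, against 3.59%), and in the pooled list 56 were (70.9%, against 34.3%). The counts in the reproducible list and the 1000 strongest regions were thus near the shares of all genes. The members led at high ranks and the other genes further down. Among the 2000 strongest regions 9 of 34 (26.5%) and 12 of 79 (15.2%) were marked, against 7.59% of all genes. Among the 4000 strongest it was 14 (41.2%) and 22 (27.8%), against 14.8%, and among the 8000 strongest 17 (50%) and 41 (51.9%), against 25.9%. The 4 other genes with the strongest pooled summits were rde-12 (rank 500, in a coding exon), car-1 (583), vbh-1 (896) and pid-5 (938). CAR-1 and VBH-1 are an RNA-binding protein and a helicase of germline RNA granules.

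These other genes had pooled summits at both ends, in 33 of 79 at the 3' end (41.8%) and in 31 of 79 at the 5' end (39.2%). In the reproducible list 3 of the 34 members and 3 of the 79 had a summit within 500 bp of the 3' end, against 1.03% of all genes, and none of the members had one at the 5' end, against 0.626%. The 3 other genes were rde-12, by the peak it shares with mip-2, oma-1, which encodes an oocyte RNA-binding protein (rank 296, 173 bp beyond its end), and ifet-1, for a translational repressor, where the summit lay at a small RNA gene (rank 82). Whether the members and these genes differ at the 5' end was not tested.

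**Figure D5:**
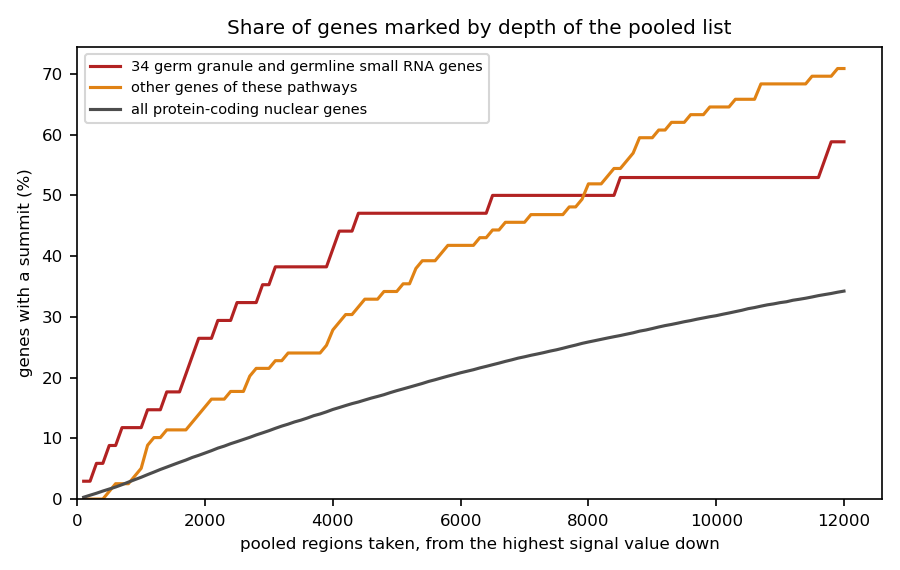
Percentage of genes marked as more of the pooled list is taken, from the highest signal value down, for the 34 genes, 79 other genes of these pathways and all protein-coding nuclear genes. The 34 genes reach 26.5% at 2000 regions and 58.8% at all 12008, and the other pathway genes pass them in the lower part of the list to reach 70.9%.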

How the data were processed

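The files held peaks only. By the names the authors gave them, a relaxed list mixes peaks with background and served as input to the irreproducible discovery rate, which yielded the reproducible list. The peak caller, aligner, versions and thresholds were not given in the sources used here. The control was not analysed here. The deposited signal value and −log10 q are the authors' own, and a summit offset gave the summit. Read depth is unknown from these lists, so the precision of a rank is unknown too. The ce10 lists were not used.

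Peaks were made 1-based and ranked by signal value among nuclear peaks, which left out 20 mitochondrial peaks in the pooled list. No peak ended beyond its chromosome in WBcel235 (Ensembl release 115 genes). Where transcripts differ, a coding exon took precedence over a 3' UTR. Overlap meant at least 1 bp. The members and lists were chosen with earlier results of these data known. All 34 members are accounted for. Those named in full were marked in the reproducible list or the 1000 strongest pooled regions, and the 6 next by pooled signal, the lowest and the unmarked were also named. The remaining members were named to account for all. A further sequence is not reported here. Marking was tested on simulated data. Python 3.11.15, numpy 2.4.6, pandas 2.3.3 and matplotlib 3.10.9 were used.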

Additional observations from a re-analysis of the deposited data

How the results depend on the processing

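Of 48 alternatives for a count, 43 left it within 1.5 times. The reproducible list gave 1 of 34 genes, hrde-1, when its upper 50% of peaks by signal was used (0.691% of all genes). As many of the strongest peaks of 1 replicate gave 3 without replicate 2 and 3 without replicate 1, but 2 genes were shared with the reproducible list without replicate 2, where prg-1 stood in place of mip-2. Counting any overlap of the peak gave 7 in place of 4 genes among the 1000 strongest pooled regions, adding wago-4, mut-16 and deps-1 (4.75% of all genes). Counted by summits, the 1000 strongest peaks of replicate 1 gave 5 (3.64% of all genes), with glh-1 and prg-1 in place of glh-2. Those of replicate 2 gave 5 (3.69% of all genes), adding wago-4 to the 4. The window of 500 bp around the 5' end, chosen after the values were seen, gave 5 in place of 20 in the pooled list (16.3% of all genes). The background of the pooled list was 43.6% in place of 34.3% when weighted by gene length. In replicate 1 alone, the strongest summit lay in a coding exon in 15 of 24 genes, in an intron in 3, in the 3' UTR in 4 and upstream in 2. Over all marked genes these shares were 40.2%, 33.1%, 7.03% and 17.1%. In replicate 2 alone, the counts in the same order were 10, 5, 4 and 4 of 23. Over all marked genes the shares there were 36.7%, 32.7%, 8.07% and 19.9%. Peak lists give no read depth, and a gene without a peak may be bound below the limit of the lists.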
